A study of Drosophila melanogaster with 11 samples.

Results

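The maternal transcriptome was described from the 4 RNA-seq libraries of unfertilized Drosophila melanogaster eggs, out of 11 RNA-seq libraries in the series. The members are all 17753 genes of the count table, and the values are TPM, a measure of transcript abundance scaled to exon length and to the sum over a library, computed for each egg library from the deposited gene counts and exon lengths. The mothers had the control genotype, Ctrl (t180 in the labels), and the 3 libraries of Ctrl embryos at stage5 that are used for comparison have the same genotype. The methods name a TRiP control line and the driver mat-alpha-Gal4, which is active in the female germline and not in the somatic follicle cells. The remaining 4 libraries are embryos with a knockdown of domino (t216, DomKD) and were not used in any comparison here. Neither the number of eggs per library nor whether the replicates came from separate collections is given in the sources used here, so SDs and p-values measure the spread between these libraries, which may be technical.

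The fly oocyte is transcriptionally quiet for most of its growth. Its sister cells, the nurse cells, make RNA and pour it into the oocyte, the follicle cells around it build the eggshell and contribute part of the yolk, and the laid egg carries the RNA on which the first nuclear divisions run. An egg that is not fertilized is activated as it is laid and completes meiosis, but it begins no embryonic nuclear divisions and activates no zygotic genome. Its RNA is therefore the maternal supply together with whatever decay egg activation sets off.

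The 4 egg libraries held 15387133, 16679756, 17700171 and 16198976 counts on genes, within the range of 11809453 to 17700171 for all 11 libraries. At this depth, 3 counts on a gene with 1 kb of exons amount to 0.348 to 0.393 TPM, depending on the library. A gene with no more than 3 counts in every egg library is treated below as at the floor, and no lower level can be told apart from absence. Every pair of libraries differed by more than counting noise, with a chi-square per gene of 4.57 to 8.16, and their log2 TPM values correlated across genes with Pearson's r of 0.993 to 0.997. Chi-square was lowest between replicates 1 and 2 (4.57) and between 3 and 4 (4.83), against 5.87 to 8.16 for the other pairs. By Pearson's r, replicates 3 and 4 (0.994) were no closer than 1 and 3 (0.995). Genes are not independent replicates, so this is a description of the libraries only.

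The label of unfertilized eggs was compared with marker genes, which cannot tell such eggs from fertilized embryos before zygotic transcription. Zygotic patterning genes and markers of the tissues that surround the egg in the ovary were at or near the floor, and germline genes were abundant. The 21 eggshell and vitelline membrane genes, which follicle cells express, summed to 1.36 to 3.21 TPM, and 19 of them had no more than 3 counts in any egg library. The 3 yolk protein genes summed to 0.0813 to 0.282 TPM. The 9 gap and terminal genes listed, which do not include hb, summed to 0.0297 to 0.259 TPM. They are among the first to be transcribed in a fertilized embryo, and 6 of them had no count in any egg library.

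The genes fell into a large present class and a large absent class, with few genes in between. Of the 17753 genes, 6336 (35.7%) exceeded 5 TPM in 3 or more of the 4 egg libraries, the limit that the study's methods set for a maternal RNA, and these are called supplied here. Among protein-coding genes, 6060 of 13845 (43.8%) were supplied. At the other end, 8188 genes (5318 of them protein-coding) had no count in any egg library, and 10231 were at the floor. The range between 1 and 10 TPM held 482 genes at 1 to 5 TPM and 196 genes at 5 to 10 TPM, whereas 3858 genes had a mean of 10 to 100 TPM and 2163 a mean of 100 to 1000 TPM. Single libraries had 6353 to 6373 genes over 5 TPM, so the count of supplied genes differed little between replicates.

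Within the supplied class the levels were spread narrowly around a high median. The median of the mean levels was 76.6 TPM, the 10th percentile 23.0 TPM and the 90th percentile 250.4 TPM, a ratio of 10.9 between these percentiles. The most abundant genes stood far above this range. The 141 genes with a mean of over 1000 TPM, 124 of them protein-coding, held 33.2% of all TPM, and the 10 most abundant genes of a library held 7.04% ± 0.134 (SD, n = 4). The 100 most abundant genes held 28.3% ± 0.643, and 492 ± 25.1 genes were enough to reach 50% of the TPM of a library. This concentration depended on the length scaling, since with CPM, which divides counts by the library total and ignores gene length, the 100 most abundant genes held 17.3% and 782 genes were needed for 50%. The 100 most abundant protein-coding genes had a median exon length of 979.5 nt, against 2131 nt for the supplied protein-coding genes and 1448 nt for the other protein-coding genes.

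**Figure D1:**
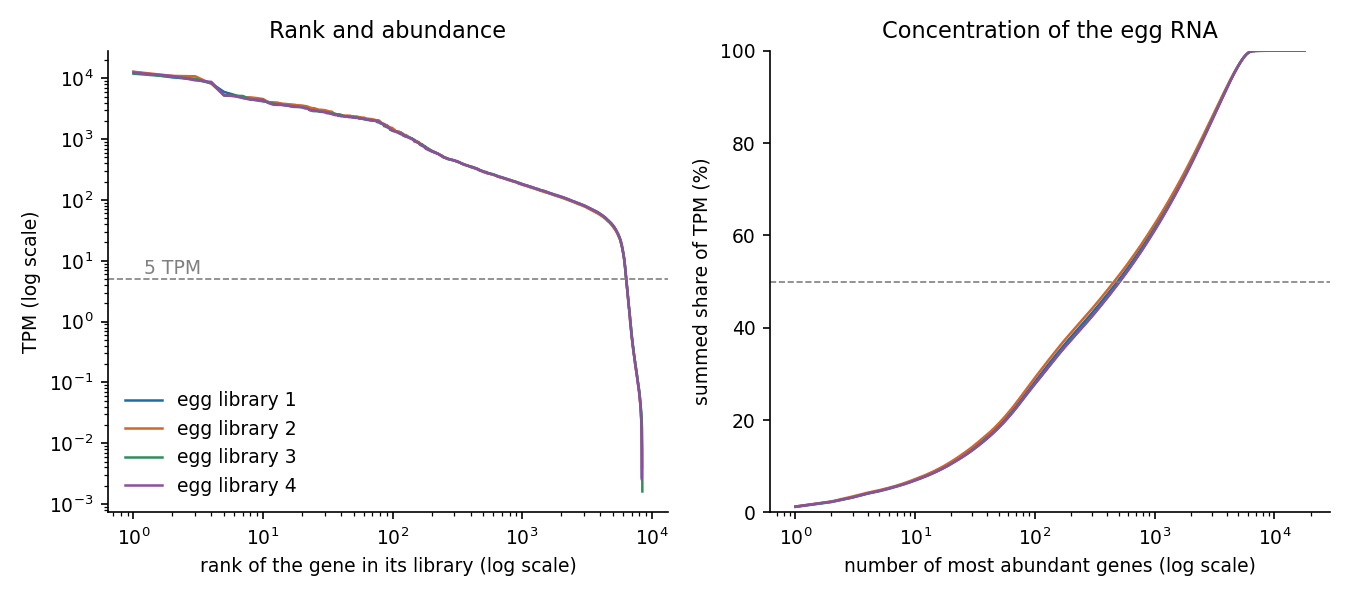
TPM of each gene against its rank within the library (left, both axes on a log scale) and the summed share of TPM held by the most abundant genes (right, rank on a log scale), with 1 line for each of the 4 egg libraries. The 4 lines lie on each other, drop steeply where they cross the dashed line of 5 TPM, after 6353 to 6373 genes, and pass the dashed line of 50% at 458 to 512 genes.

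Of the RNAs at the top, most encoded the translation machinery and chaperones, and dhd, me31B and awd were the other protein-coding genes among the 20 most abundant. The most abundant protein-coding gene was RpL41, which encodes the smallest protein of the large ribosomal subunit, with 12739, 12834, 11929 and 12371 TPM in replicates 1 to 4 and a mean of 12468 ± 411 TPM (SD, n = 4). It was followed by eEF1alpha1, the elongation factor that brings aminoacyl-tRNAs to the ribosome, with 8256, 8130.5, 8320.2 and 8734 TPM. All 4 libraries had these genes in the first and second place among protein-coding genes, and their ranges did not overlap. The 20 most abundant protein-coding genes together held 8.92% of the TPM.

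The third place was held by dhd, the first entry that is not part of the translation machinery. The gene dhd (FBgn0011761, chromosome X, positions 5312171 to 5313125, plus strand) is known as deadhead and encodes a thioredoxin of the female germline that acts on paternal chromatin after fertilization. Its levels were 5980.4, 5367, 5184 and 5246 TPM, with replicate 1 above the other 3. Hsp83, the fly Hsp90 chaperone, whose RNA is known to be protected from decay in the germ plasm, was close to it at 5348, 5112, 5195 and 5086 TPM. The ranges of dhd and Hsp83 overlapped, so their order was not resolved.

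The small heat shock gene Hsp26, which is known to be expressed in the ovary without heat shock, had 3920.3, 4023, 4309 and 4457 TPM, and Hsc70-4, the constitutive Hsp70 relative, had 3009, 2945, 2999 and 2996 TPM. Both were present at similar levels in all 4 libraries. The heat-inducible Hsp70 genes were on the other side of the range. Hsp70Aa and Hsp70Bb had no count in any egg library, and Hsp70Ab and Hsp70Ba had 0.142 and 0.0417 TPM, with the reservation that these genes are near-identical copies whose reads the counting may not have assigned. Of 19 chaperone genes listed, 11 were supplied, among them Hsp60A of the mitochondrion at 798 ± 13.8 TPM, the Hsp90 co-chaperone Stip1 at 529 ± 6.11 TPM and Hsp27 at 487 ± 58.2 TPM.

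RNA of the DEAD-box helicase me31B, which binds and represses stored maternal mRNA, was among the 20 most abundant with 3700.3, 3726, 3749 and 3682 TPM. Its coefficient of variation (CV) over the 4 libraries was 0.787%, the lowest of the 20. The nucleoside diphosphate kinase gene awd stood at 3002, 3222, 3192 and 3196 TPM, with replicate 1 below the other 3. The other members of the 20 were ribosomal protein genes and the elongation factors eEF2 at 3737 ± 88.6 TPM and eEF5 at 3383 ± 107 TPM.

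**Figure D2:**
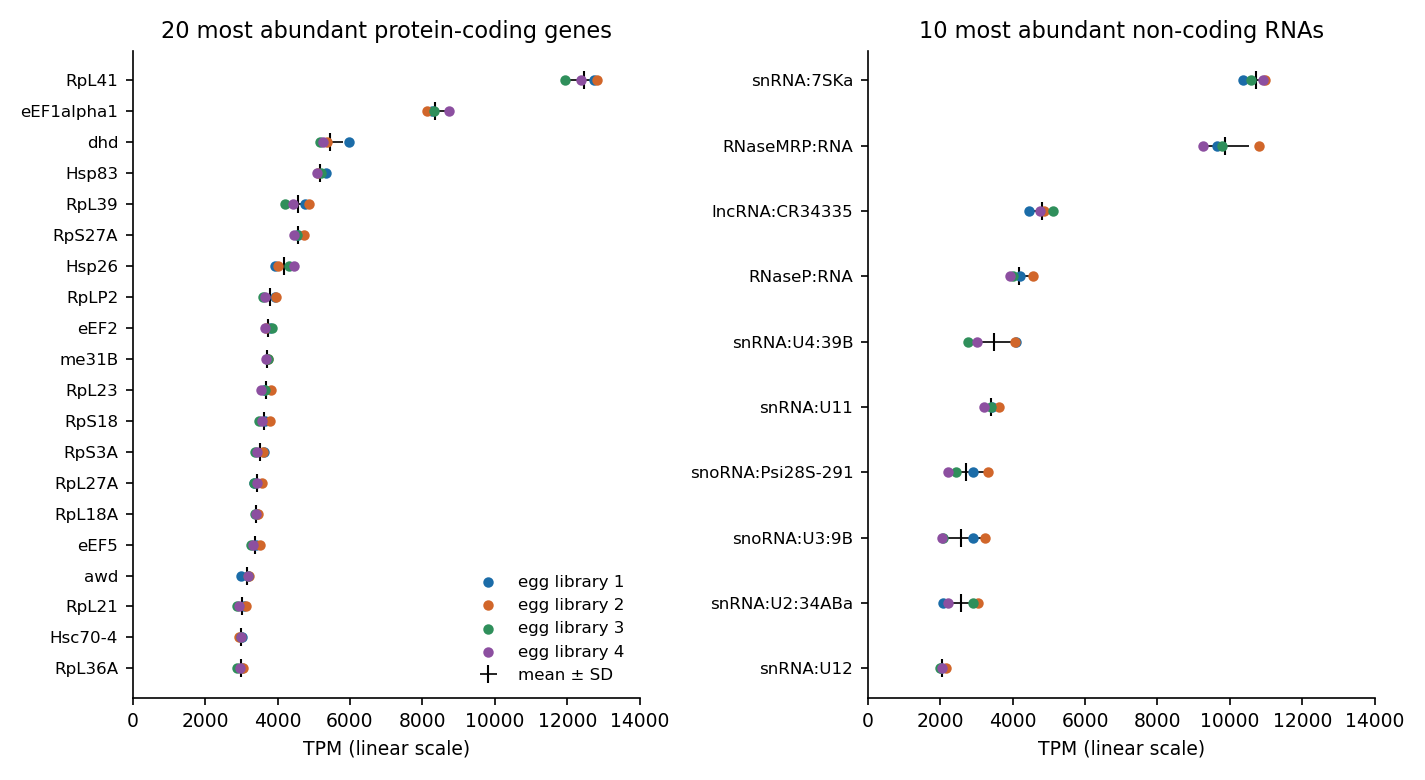
TPM (linear axis from 0) of the 20 most abundant protein-coding genes and the 10 most abundant non-coding RNAs in unfertilized eggs, with 1 coloured point for each of the 4 libraries and the mean ± SD as a black mark and line. RpL41 and eEF1alpha1 stand apart from the rest on the left, and snRNA:7SKa and RNaseMRP:RNA on the right. Also on the right, RNaseP:RNA, snRNA:U4:39B, snRNA:U11, snoRNA:Psi28S-291 and snoRNA:U3:9B have their 2 highest values in libraries 1 and 2.

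Ribosomal protein genes formed the largest functional group. Of 92 cytoplasmic ribosomal protein genes, 84 were supplied, and together they held 17.6% ± 0.384 (SD, n = 4) of the TPM. Their median level was 1990.0 TPM, against 0.0237 TPM over all genes of the table, and 65 of the 100 most abundant protein-coding genes belonged to this group. That count is a statement about molecules per length: by CPM it was 34, and the group's share of all counts was 7.60%. The 8 genes that were not supplied were paralogs of other ribosomal protein genes, namely RpS10a, RpL7-like, RpL37-2, RpL22-like, RpL10Aa, RpS19b, RpS28a and RpS28-like, and RpS19b had the highest mean of them at 0.498 TPM. For RpL7-like, 98.8% of the exonic bases are shared with CG34164 on the same strand, so absence and unassigned reads cannot be told apart. The 74 mitochondrial ribosomal proteins, encoded in the nucleus, were also nearly all supplied (73), but at a much lower median of 94.9 TPM, with mRpL12 the highest at 228 ± 9.22 TPM.

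Translation factors were supplied in 21 of 22 cases. Besides the elongation factors above, eIF4A, the helicase that unwinds the 5′ ends of mRNAs for initiation, had 1314, 1315, 1303 and 1298 TPM, and Tctp had 1819.6, 1835, 1761 and 1809 TPM. The exception was eEF1alpha2, the paralog of eEF1alpha1, with 0, 0.0887, 0.0436 and 0.0474 TPM and no more than 3 counts in any library. The lowest supplied member was eIF5 at 13.9 ± 0.509 TPM, and 80.8% of its exonic bases are shared with another gene on the same strand.

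Energy and protein turnover genes were abundant. Of 13 glycolysis genes, 11 were supplied, led by Gapdh2 at 2497, 2449.9, 2608 and 2656 TPM and by the enolase gene Eno at 1026, 1035, 1122 and 1017 TPM. Ldh, which makes lactate from pyruvate, was at the floor with 0, 0.121, 0 and 0 TPM, and Hex-C, a paralog of the supplied hexokinase Hex-A, had no count. Of 91 nuclear genes for oxidative phosphorylation, 68 were supplied, with ATPsynC at 1187 ± 24.3 TPM and ATPsynbeta at 1124 ± 19.1 TPM the highest. Of 48 proteasome genes 31 were supplied, with a median of 448.3 TPM among these. The 17 below the limit had at most 0.929 TPM and were mostly paralogs, such as Prosalpha4T1, Prosalpha4T2, Prosalpha6T, Rpt4R and Rpn12R, all 5 without a count in eggs.

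Cytoskeleton genes also differed in level between paralogs. Of 15 actin and tubulin genes, 8 were supplied, among them the general forms betaTub56D at 2378 ± 137 TPM, alphaTub84B at 2150.2 ± 126 TPM and Act5C at 1276 ± 41.2 TPM, and the maternal forms alphaTub67C and gammaTub37C. The other 3 were Act42A, alphaTub84D and gammaTub23C, with 371, 154 and 121 TPM on average. The maternal alpha-tubulin alphaTub67C had 893, 858, 885 and 917 TPM, and the maternal gamma-tubulin gammaTub37C had 190.5, 199, 202 and 207 TPM. The tubulin of the male germline, betaTub85D, had no count in any of the 11 libraries, and the muscle actins Act57B, Act79B, Act87E and Act88F had at most 0.195 TPM on average.

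Among non-coding RNAs, small structural RNAs stood out. The most abundant was snRNA:7SKa, the scaffold of the complex that holds back the elongation factor P-TEFb, with 10367, 10959.5, 10592 and 10926 TPM. It was followed by RNaseMRP:RNA, with 9639, 10802, 9793 and 9262 TPM. RNaseP:RNA had 4212, 4569.7, 4020.2 and 3923 TPM. RNaseMRP:RNA and RNaseP:RNA are the RNA subunits of the ribonucleases that process ribosomal RNA and tRNA precursors. The 10 most abundant non-coding RNAs held 4.64% of the TPM. Of 29 spliceosomal snRNA genes 23 were supplied, including those of the minor spliceosome, snRNA:U11 at 3416 ± 168 TPM and snRNA:U12 at 2054 ± 74.7 TPM. Of 258 small nucleolar RNA genes, which guide the modification of ribosomal RNA, 128 were supplied. A long non-coding RNA of unstated function, lncRNA:CR34335, had 4456, 4866, 5119.9 and 4748 TPM. It ranked between RNaseMRP:RNA and RNaseP:RNA and was above RNaseP:RNA in every egg library. By contrast, only 56 of 2748 genes annotated as ncRNA (2.04%) were supplied, and lncRNA:Hsromega, the heat shock RNA of nuclear speckles, was at 0.0661 TPM. The range of fragment lengths kept in these libraries is not given in the sources used here.

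Genes known only by a CG number were also found at high levels. The 10 most abundant of them held 0.927% of the TPM. The highest was CG6770 (FBgn0032400, chromosome 2L, positions 12045343 to 12046118, minus strand), with 2313, 2246, 2509 and 2410.0 TPM, on average between alphaTub84B and betaTub56D. CG2852 had 1286, 1337, 1295 and 1361 TPM, and CG1943 had 969, 966, 1012 and 989.8 TPM. CG4991 had 548, 554, 712 and 572 TPM, with replicate 3 above the other 3. The remaining 6 (CG7840, CG10576, CG11267, CG8180, CG14545 and CG10254) had means between 561 and 859.9 TPM.

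The maternal determinants of the body axes were nearly all present. Of 32 listed genes, 29 were supplied. The list was written with earlier results of these data known, so this share may follow in part from the choice of members. On the posterior side, nanos, the RNA-binding repressor that specifies the abdomen, had 1247, 1177, 1232 and 1268 TPM, and osk, the organizer of the germ plasm, had 1074, 1033, 1084 and 1028 TPM. For osk, 78.5% of the exonic bases are shared on the same strand with a gene of the newer annotation that is not in the count table. Anterior determination was represented by bcd, the morphogen RNA localized to the anterior pole, with 137, 119.6, 129 and 135 TPM, and by the factors that localize it, exu at 1080.4, 986, 1126 and 1090.0 TPM and swa at 587, 581, 596 and 577 TPM. The localization factor RNAs exu and swa were thus higher in all 4 libraries than the RNA they localize.

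On the dorsoventral axis, RNA for the receptor Tl stood at 395, 383, 417 and 405 TPM and that for cact, the inhibitor in the cytoplasm, at 322, 324, 336 and 337 TPM, while dl, the transcription factor that the pathway releases, was at 39.9, 37.2, 39.9 and 41.8 TPM. The RNAs for pll and tub, which act between receptor and inhibitor, had 86.3 ± 1.87 and 162 ± 4.04 TPM. The extracellular proteases ea, snk and gd had 111, 27.3 and 29.7 TPM on average. The terminal receptor tor had 156, 155, 164 and 166 TPM and its ligand trk had 22.9, 20.7, 24.4 and 20.1 TPM. The maternal gap regulator hb had 123, 112, 132 and 131 TPM, and cad had 257, 232, 269 and 251 TPM. The ranges of Tl, cad, tor and hb did not overlap, in this order from high to low, whereas those of hb and bcd did. Below the limit were ndl, a protease of the follicle cells, at 0.487 TPM, tsg at 0.103 TPM, and BicC, which is treated with the overlapping genes.

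Germ plasm genes were supplied without exception (18 of 18), and so were the genes of the piRNA pathway (27 of 27), which silences transposons in the germline. Both lists were written with earlier results of these data known, so these shares may follow in part from the choice of members. In the first group pgc, which holds back transcription in the pole cells, had 802, 759, 749.9 and 749 TPM, gcl had 346, 345, 354 and 359 TPM, vas, a helicase of the germ granules, had 264, 240.5, 299 and 285 TPM and tud had 145, 136, 163 and 149 TPM. Of the exonic bases of pgc, 46.9% are shared with a gene on the other strand, whose reads cannot be told apart without the strand setting. The Argonaute proteins of the piRNA pathway differed in level, with AGO3 at 173, 167, 181 and 191 TPM, piwi at 181, 169, 182 and 179.8 TPM and aub at 71.5, 71.6, 93.5 and 87.2 TPM. The ranges of AGO3 and piwi overlapped and aub lay below both. The lowest member was cuff, which acts on piRNA precursors in the nucleus, at 11.2 TPM on average. For armi, 99.6% of the exonic bases are shared with a gene that is not in the count table, and it had 174 TPM.

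The regulators that repress, activate or clear maternal mRNA followed the same pattern, with 27 of 28 supplied. For this list too the share may follow in part from the choice of members. After me31B, its partner tral had 1150.1, 1134, 1204 and 1131 TPM, and smg, which recruits deadenylases to maternal mRNA, had 989.8, 929, 1035 and 988 TPM. The poly(A)-binding protein gene pAbp had 767, 693, 682 and 786 TPM and the ovarian translational repressor bru1 had 453, 443, 483 and 467 TPM. The subunits of the PNG kinase, which drives translation at egg activation, differed: gnu had 455, 460.0, 448 and 453 TPM, png had 190.1, 175, 179.8 and 175 TPM and plu had 131, 124, 129 and 135 TPM, with no overlap between these ranges. The deadenylase subunits Not1 and Pop2 had 188 ± 17.3 and 129.7 ± 5.46 TPM. The exception was cup, with no count.

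RNAs for the rapid early divisions were supplied for all 30 cell cycle genes and 31 of 32 DNA replication genes. Here too the members were chosen with earlier results known, so these shares may follow in part from that choice. The cyclins CycB and CycA were the highest, with CycB at 2545, 2440.1, 2631 and 2677 TPM and CycA at 1822, 1790.2, 1891 and 1804 TPM, while CycB3 had 219.8 ± 14.5 TPM, CycE 213 ± 13.4 TPM and CycD 198 ± 5.62 TPM. Cdk1 was at 466, 456, 444 and 476 TPM and polo at 463, 452, 472 and 469.9 TPM. Both Cdc25 phosphatases were present, stg at 250.2, 238, 280.3 and 303 TPM and twe at 199, 195, 195 and 209.6 TPM. The checkpoint kinase lok had 524, 514, 538 and 533 TPM and grp had 394, 387, 383 and 399 TPM. The lowest member was Cdk4 at 23.9 ± 1.18 TPM.

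The replication list was led by the ribonucleotide reductase subunits RnrS at 1051, 969, 1050.4 and 1062 TPM and RnrL at 586, 572, 601 and 593 TPM and by PCNA, the sliding clamp, at 607, 552, 587 and 606 TPM. The ranges of RnrL and PCNA overlapped, so their order was not resolved. The subunits of the Mcm helicase were close to each other, with Mcm5 at 331 ± 11.8 TPM, Mcm7 at 299.8 ± 11.1 TPM, dpa (Mcm4) at 291 ± 11.8 TPM, Mcm3 at 259 ± 16.3 TPM, Mcm2 at 252 ± 19.2 TPM and Mcm6 at 248 ± 7.25 TPM. For Mcm7, 81.7% of the exonic bases are shared with a gene on the other strand, whose reads cannot be told apart without the strand setting. The origin recognition subunits Orc2, Orc4, Orc5 and Orc6 had 97.8 to 109 TPM, and Orc3 had no count in any library.

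Chromatin components were supplied broadly. His2Av, the fly histone H2A.Z, which the study follows, had 1117, 1106, 1089 and 1133 TPM. The ATPase dom, which deposits H2A.Z, had 220.1, 199, 226 and 218 TPM, and of 18 genes for this histone and the subunits of its complexes 17 were supplied, from Gas41 at 30.3 ± 2.34 TPM to His2Av. The exception was Act87E, an actin at 0.0165 TPM. Among other histone variants and linker proteins, BigH1, the embryonic linker histone, had 704, 735, 715 and 695 TPM, HmgD had 906, 926, 890.3 and 902 TPM and the centromeric histone cid had 144, 134, 149 and 162 TPM, whereas HmgZ was at 0.245, 0.147, 0.0723 and 0.0786 TPM. HmgD and HmgZ encode related HMG-box proteins from neighbouring genes, and their levels did not overlap.

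Of 10 regulators of early zygotic transcription, 9 passed the limit. The list was drawn up as regulators supplied as RNA, so this share follows from the choice of its members. Clamp, a zinc finger protein that binds GA repeats, had 232, 237, 228 and 253 TPM, and zld, the pioneer factor of genome activation, had 56.7, 43.5, 33.0 and 40.0 TPM, the lowest of the 9. Relative to its level zld varied more than Clamp, with 43.3 ± 9.97 TPM against 238 ± 10.9 TPM (SD, n = 4), and its replicate 1 was the highest. Trl was below the limit at 3.55 ± 0.204 TPM, and 77.8% of its exonic bases are shared with other genes on the same strand. In sex determination and dosage compensation, 13 of 18 genes were supplied, among them otu at 245 ± 17.6 TPM, snf at 229.8 ± 4.97 TPM and mof at 223 ± 21.4 TPM. Both RNAs of the male dosage compensation complex, lncRNA:roX1 and lncRNA:roX2, were at 0.0499 TPM and at no count, and msl-2, its protein limited to males, was at 1.96 ± 0.423 TPM.

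Most cytochrome P450 genes, a family known for steroid synthesis and detoxification, were absent, with a prominent exception. Of 84 cytochrome P450 genes 10 (11.9%) were supplied and 61 (72.6%) were at the floor, against 35.7% and 57.6% of all genes. The exception, Cyp6a19, had 896, 793, 857 and 863 TPM. Cyp6v1, the next, had 154, 161, 174 and 172 TPM. These levels of Cyp6a19 were higher in each library than those of Tl, hb or CycE.

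**Figure D3:**
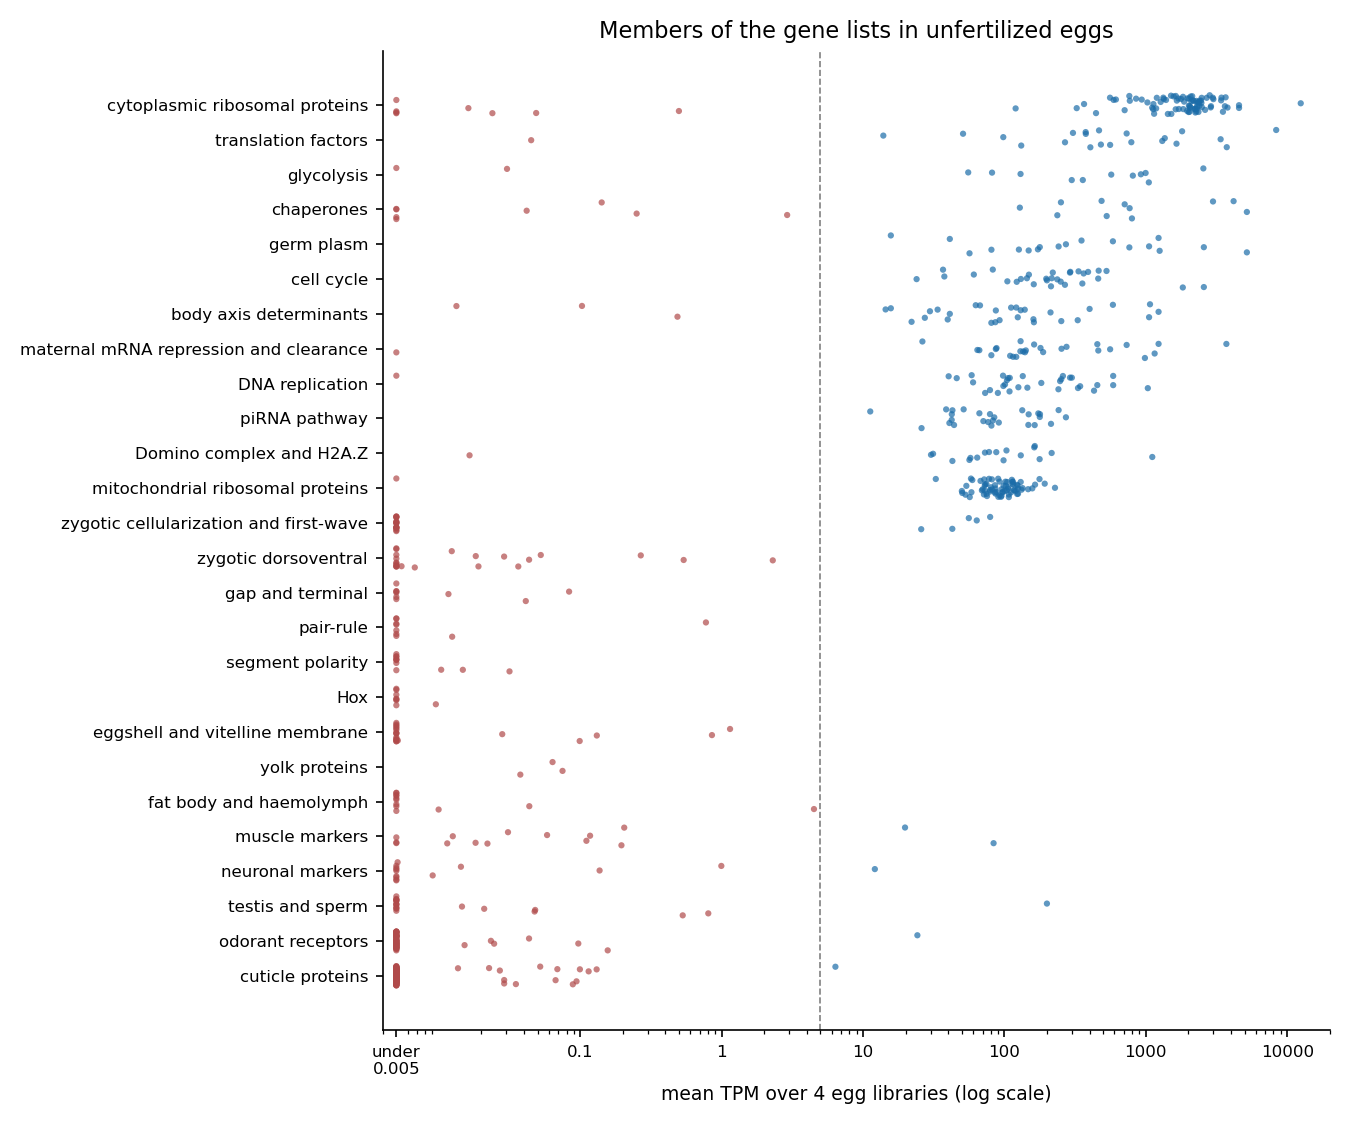
Mean TPM over 4 egg libraries (log axis, values under 0.005 drawn at 0.005) of every member of 26 gene lists, with 1 point for each gene, blue over 5 TPM and red at or under it. Housekeeping and germline lists lie mostly to the right of the dashed line at 5 TPM, and zygotic, eggshell and somatic lists mostly to the left. The largest exceptions are the chaperones, with 11 of 19 genes supplied, and the zygotic cellularization and first-wave list, with 5 of 21 supplied.

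The absent genes included whole functional groups. Of 51 gene lists, 18 had no supplied member. The share supplied over all genes, 35.7%, is a share of genes and is no baseline for a number of lists. Of these 18, the lists of the mitochondrial genome and of microRNAs are not read as absent, since the counts were of little use for them. None of the gap and terminal genes (0 of 9), pair-rule genes (0 of 9), segment polarity genes (0 of 11), Hox genes (0 of 8) or zygotic dorsoventral genes (0 of 22) was supplied. The number of these at the floor was 9, 8, 10, 8 and 18, against 57.6% of all genes. The lists were written with earlier results of these data known, so their shares may follow in part from the choice of members. The gap list does not hold hb, a gap gene supplied at 124 TPM on average, which is described with the body axes. The gap genes kni and tll, the pair-rule genes eve, ftz and run, the mesoderm gene sna and the BMP ligand dpp had no count in any of the 4 egg libraries. The highest members were opa at 0.580, 0.801, 0.986 and 0.729 TPM, zen at 0.827, 0.372, 0.457 and 0.497 TPM and ush at 2.36, 1.93, 2.64 and 2.25 TPM. By CPM, 1 of the 22 zygotic dorsoventral genes, ush, passed the limit of 5.

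Zygotic genes of cellularization and of the first wave of transcription were absent in 16 of 21 cases, each without any count in eggs, including nullo, bnk, halo, term, sisA and sc. For 1 of the 16, Sry-alpha, all exonic bases are shared with Sry-beta and no library of the 11 had a count, so that absence and unassigned reads cannot be told apart. The other 5 were supplied. These were slam, a cellularization protein, with 77.7, 71.6, 81.5 and 86.1 TPM, T48, known for the folding of the mesoderm, with 64.2, 63.8, 60.3 and 66.5 TPM, fog, a secreted signal for the same folding, with 25.8 ± 0.596 TPM, the sex determination gene Sxl with 58.1, 52.8, 56.4 and 56.6 TPM and mthl1 with 44.5, 39.6, 42.6 and 44.5 TPM. Their presence was the same in all 4 libraries. Counts per gene do not separate transcripts, so the early and late forms of Sxl were not distinguished.

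Genes of differentiated tissues were absent almost completely. There was no supplied member among 51 odorant-binding proteins, 23 Osiris genes, 32 serine proteases of the gut, 51 accessory gland and seminal fluid genes, 18 glue genes, 14 antimicrobial peptides, 60 gustatory receptors and 12 fat body and haemolymph genes. The highest members of the last 2 were Gr61a at 4.35, 4.35, 4.78 and 3.71 TPM and apolpp, the precursor of the lipid carriers of the haemolymph, at 4.72, 4.19, 4.31 and 4.77 TPM, both just under the limit. All 51 odorant-binding protein genes and all 51 accessory gland genes were at the floor.

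Single exceptions appeared in otherwise silent lists. Or43b was the only supplied member of 60 odorant receptors, at 21.4, 23.3, 28.8 and 23.4 TPM. Of its exonic bases 40.7% are shared with a gene on the other strand, and with the strand setting of the counting not given, reads of that gene cannot be told apart. Ir76a was the only supplied one of 66 ionotropic receptors at 6.59, 6.14, 7.36 and 7.59 TPM, and Cpr67Fb the only one of 125 cuticle proteins at 5.74, 8.25, 3.80 and 7.72 TPM, from 20, 32, 15 and 28 counts. For Cpr67Fb the bases shared with the other strand are 85.1%, so the same limit holds. The phospholipase gene norpA of the phototransduction list (1 of 12) had 41.8, 44.4, 48.3 and 47.4 TPM, while the opsin ninaE had no count.

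In the list of testis and sperm genes (1 of 20), the exception was twe, which is also the Cdc25 phosphatase of female meiosis. Muscle markers were at or near 0 except for Tm1 at 83.2, 81.6, 85.8 and 84.6 TPM and Mef2 at 19.6, 18.3, 20.9 and 20.4 TPM (2 of 15), and Mhc, the defining myosin, was at 0.0582 TPM. Neuronal markers were at or near 0 except for Syx1A at 12.1 ± 0.937 TPM (1 of 14), while elav and nSyb were at 0.0143 TPM and at no count.

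For some classes of genes the counts were of little use. All 38 genes of the mitochondrial genome had no count in any of the 11 libraries, although nuclear genes for the same respiratory complexes were abundant. Of 111 replication-dependent histone genes, which are repeated in near-identical copies, 104 had no count in any of the 11 libraries, and a single copy, His2B:CG33868, had 164, 163, 155 and 147 TPM. Similarly, Prosalpha1 and Prosalpha1R, a near-identical pair of proteasome genes, were at 0.695 and 0.638 TPM while the other alpha subunits, from Prosalpha2 to Prosalpha7, had 568 to 694 TPM. MicroRNA genes (259) were all at the floor, as were 314 of 317 tRNA genes. The levels of these classes in the egg are not interpreted here.

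Genes that share their exons with another gene on the same strand were nearly always without reads. Of 555 genes with at least 90% of their exonic bases shared in this way, 534 (96.2%) were at the floor in eggs, against 56.4% of the other genes. Some of these are known maternal genes. The gene cup (FBgn0000392, chromosome 2L, positions 6663664 to 6674780, plus strand), which encodes a repressor of osk translation, had no count in any of the 11 libraries, and all of its exonic bases are shared with CG34310. BicC shares 94.8% of its exonic bases with CG45084 and had 0, 0, 1 and 1 counts in the 4 egg libraries. Orc3, Hsp22, mRpL53 and ND-MNLL are shared completely with another gene of the count table and had no count. In osk and armi, where the partner gene is not in the count table, counts were high. For genes that overlap in this way, absence from the egg and reads left unassigned cannot be told apart.

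By chromosome, supplied genes made up 40.4% to 43.7% of the protein-coding genes of the large autosome arms, 49.5% of those on the X chromosome (1070 of 2163) and 60.8% of those on the small chromosome 4 (48 of 79). None of 23 protein-coding genes of the Y chromosome, which females do not carry, was supplied, and 22 of them had no count. These shares are counts over genes and were not tested.

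The 4 libraries agreed closely for most genes. Over the 6404 genes averaging 50 counts or more, the median CV of TPM was 4.73%, and 152 of them had a CV over 20%. Over the 3865 genes averaging 1000 counts or more, the median was 4.09%, and 21 had a CV over 20%. The common biological coefficient of variation, estimated by edgeR over 6850 genes, was 5.03%. In the fit of eggs with Ctrl embryos, over other genes, it was 8.43%.

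Short RNAs varied more than the rest. The 75 genes under 200 nt with at least 50 counts on average, none of them protein-coding, had a median CV of 21.8%, against 4.69% for the 6329 longer genes. Genes under 200 nt held 3.54%, 3.91%, 2.82% and 2.64% of the TPM in replicates 1 to 4. The small nucleolar RNAs held 2.98%, 3.28%, 2.31% and 2.17%, so replicates 1 and 2 were above replicates 3 and 4 in both measures. Ribosomal protein genes varied less, holding 17.6%, 18.1%, 17.2% and 17.5%.

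Genes with the largest CV were present at low counts. CG31639 had 0, 0, 0 and 216 counts, all of its egg reads coming from replicate 4, and 2, 2 and 105 counts in Ctrl embryo replicates 2, 3 and 4. CG42857 had 43, 7, 128 and 91 counts and CG13631 had 44, 53, 130 and 40 counts. The next 7 genes, among them nrm, Arc1, Dad, CG14696, rst and Ac13E, had CVs of 43.9% to 52.4% and means of 1.12 to 5.62 TPM. The libraries that were high differed from gene to gene, with replicates 1 and 2 high for Arc1, replicate 1 for Dad and replicates 3 and 4 for rst.

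**Figure D4:**
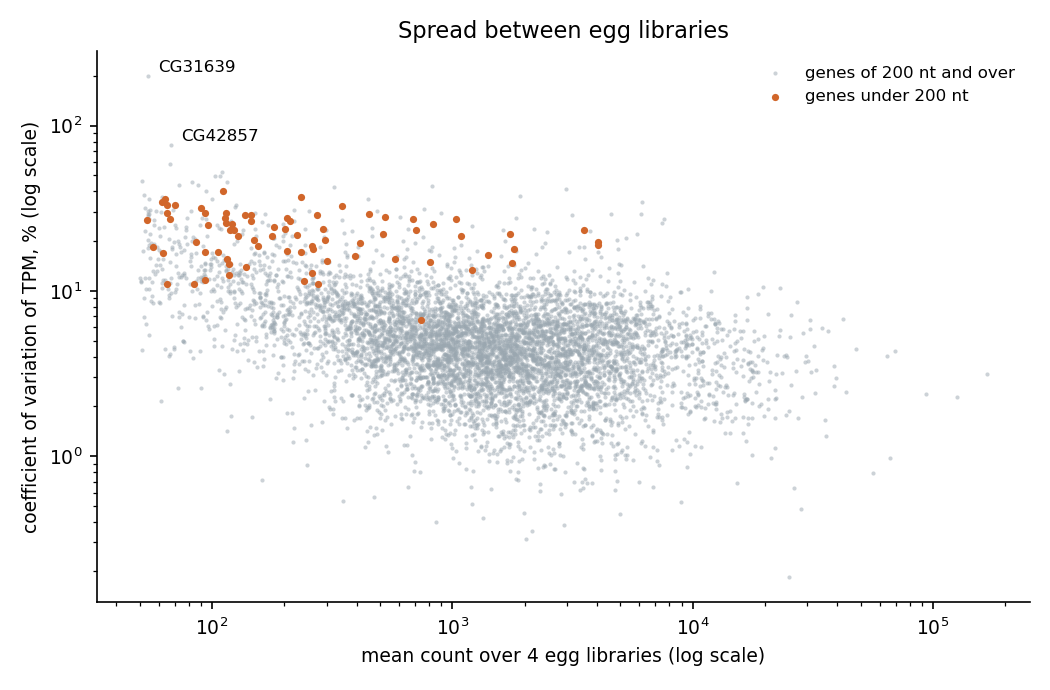
Coefficient of variation of TPM over the 4 egg libraries (%, log axis) against the mean count (log axis) of 6404 genes with at least 50 counts on average, with 1 point for each gene and genes under 200 nt in orange. The orange points lie above most grey points at the same count, at a median of 21.8% against 4.69%, and CG31639 is the highest point.

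For orientation, egg levels were set against those of the 3 Ctrl embryo libraries, which still hold maternal RNA next to zygotic RNA. With edgeR's quasi-likelihood test over 7565 genes averaging 10 counts or more, 39.2% of genes were higher in eggs and 46.6% were lower (adjusted p under 0.05, Benjamini-Hochberg). The median log2 difference of eggs minus embryos was -0.14 over all tested genes and 0.05 over the 6324 supplied genes tested. All differences are relative to the total of a library, and a change of the total RNA per egg cannot be seen. In the embryo libraries, which are bulk samples, fewer cells of a type and less RNA per cell cannot be told apart.

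Germ plasm RNAs were mostly higher in eggs, with 15 of 18 higher, 2 lower and a median log2 difference of 1.43. Of 31 DNA replication genes tested 23 were higher and 6 lower, with a median of 1.55. For nanos the embryo libraries had 126 to 179 TPM, and the test gave a log2 difference of 2.99 (standard error 0.09, adjusted p = 2.95e-10). For exu, with 24.6 to 29.5 TPM in embryos, it gave a log2 difference of 5.29 (standard error 0.07, adjusted p = 2.25e-11), and for dhd, with 73.5 to 84.9 TPM in embryos, a log2 difference of 6.02 (standard error 0.08, adjusted p = 2.25e-11). For all 3 genes every egg library was above every embryo library. Of 12 glycolysis genes tested 10 were higher in eggs, Gapdh2 among them with 53.6 TPM in embryos, and 2 were lower. Cyp6a19 was higher in eggs as well, with 1.74 to 3.75 TPM in embryos and a log2 difference of 8.27 (standard error 0.15, adjusted p = 2.58e-11).

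Some maternal RNAs gave no call. For bcd, with 109 to 179 TPM in embryos, the test gave a log2 difference of -0.17 (standard error 0.12, adjusted p = 0.200). For smg, with 802 to 1015 TPM in embryos, it gave a log2 difference of 0.06 (standard error 0.06, adjusted p = 0.378), and for CycB, with 1953 to 2734 TPM, a log2 difference of 0.10 (standard error 0.08, adjusted p = 0.279). The missing call does not show that these levels were equal.

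Other maternal RNAs took a larger share in embryos. Of 84 ribosomal protein genes tested 81 were lower in eggs and none was higher, with a median log2 difference of -0.48 that was -0.47 with DESeq2 size factors and -0.48 with library size alone. The median over all genes was shifted by -0.14 in the same direction, so the part beyond the general shift was smaller. Of the 18 genes of H2A.Z and its complexes, 17 were lower in eggs and Ing3 was higher. For dom the embryo libraries had 270.2 to 318 TPM and the test gave a log2 difference of -0.49 (standard error 0.05, adjusted p = 4.95e-06). Counts do not show whether such RNAs were retained while others decayed or were transcribed anew.

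Zygotic lists could differ in 1 direction only, since most of their members were at the floor in eggs. All 9 gap and terminal genes, all 9 pair-rule genes and 21 of 22 zygotic dorsoventral genes were lower in eggs. Genes without any count in eggs reached 1305 TPM for halo, 1175 TPM for Z600, 599 TPM for term, 578 TPM for Bro and 109.5 TPM for tll in the embryo libraries. The exception was ush, with 2.76 TPM in embryos and no call. Over all genes, 927 (760 protein-coding) were at the floor in eggs and averaged 10 counts or more in Ctrl embryos.

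**Figure D5:**
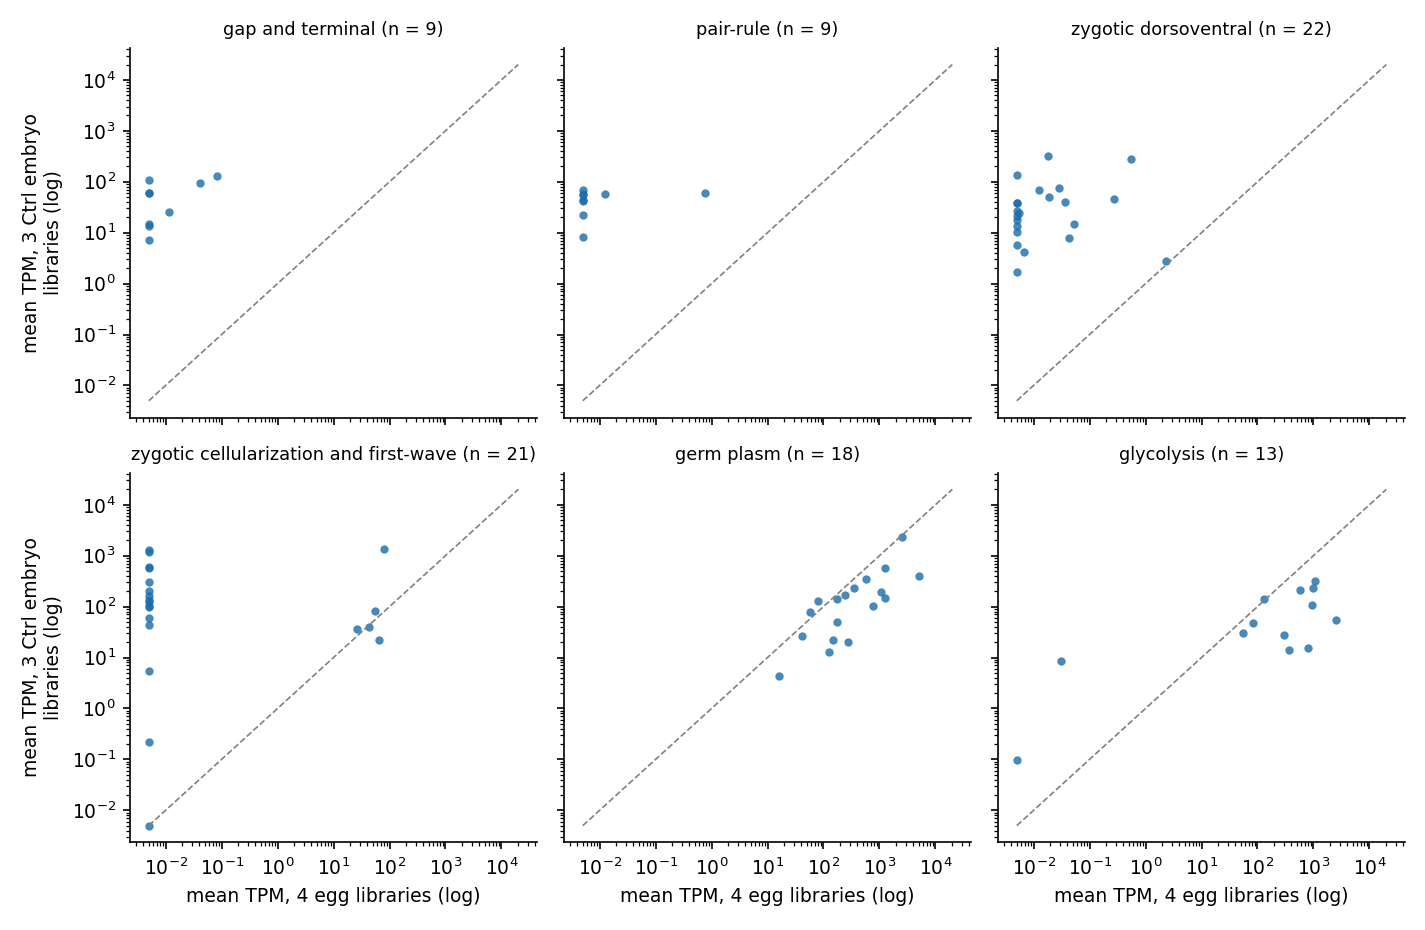
Mean TPM in the 3 Ctrl embryo libraries against mean TPM in the 4 egg libraries (both axes on a log scale, values under 0.005 drawn at 0.005) for the members of 6 gene lists, with 1 point for each gene and a dashed line of equal levels. Gap, pair-rule and dorsoventral genes stand above the line, except for ush, whose 2 levels are close, and most germ plasm and glycolysis genes lie below it.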

How the data were processed

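RNA-seq was analysed in 4 libraries of unfertilized eggs and, for comparison, in 3 libraries of Ctrl embryos. Per the labels and methods, the libraries were made with the Illumina TruSeq Stranded Total RNA kit, and trimmed reads were mapped by the authors to dm6 and turned into raw gene counts with featureCounts in the mRNA-seq workflow of snakePipes (version 2.0.2) with the Ensembl 96 annotation. The aligner, the strand setting and the handling of reads with several matches are not given in the sources used here. The deposited table holds whole-number counts and the exon length of each gene in nt, with no normalization. Samples were taken from the column names, and 1 further column of per-sample counts matched no sample and was not used.

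TPM was computed per library as counts divided by exon length, scaled to a constant sum over all 17753 genes. Gene symbols, positions and overlaps came from Ensembl 115, which named 17626 genes and left 127 unnamed, with 0.716% of the TPM. Overlap was counted over exonic bases. A gene with over 5 TPM in 3 of 4 libraries was called supplied, and 3 counts was the floor. Eggs and embryos were compared with edgeR's quasi-likelihood test (TMM, genes with a mean of 10 counts, Benjamini-Hochberg adjustment, threshold 0.05). The test was also tried on simulated counts, but with few changed genes. Most genes were called here, so that trial does not cover this comparison. The software was Python 3.11.15, pandas 2.3.3, numpy 2.4.6, R 4.3.3, edgeR 4.0.16 and DESeq2 1.42.0.

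The genes named are the 20 protein-coding and 10 non-coding genes of the highest mean TPM, the 10 highest with a CG number only, the 10 of the largest CV among genes with a mean of 50 counts, and members of 51 gene lists, chosen by role and as highest, lowest or exception. Members and lists were chosen with earlier results of these data known, and symbols in the lists were brought to those of the annotation. Alternatives were another limit, other gene sets and lengths for TPM, CPM, each library left out, DESeq2, other scalings and filters, and a replicate block. Intervals of counts are not given, and the floor covers counting error only.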

Additional observations from a re-analysis of the deposited data

Results flagged for a closer look

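In 7 of 195 groups of 4 egg libraries examined, 1 library lay far from the other 3, by a gap above Dixon's 95% limit for the share of the range. Chance gives such a gap in about 1 in 20 groups.

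CG31639 had 43.0 TPM in replicate 4 from 216 counts and no count in the other 3 libraries. CG13631 had 9.52 TPM in replicate 3, against 3.18 to 3.94 TPM in the others, and CG4991 had 712 TPM in replicate 3, against 548 to 572 TPM. RnrS had 969 TPM in replicate 2, against 1050.4 to 1062 TPM, and piwi had 169 TPM in replicate 2, against 179.8 to 182 TPM. In replicate 1, awd had 3002 TPM, against 3192 to 3222 TPM, and Nap1 had 1432 TPM, against 1334 to 1350.4 TPM. Of these 7 genes CG31639 alone had its reads in 1 library.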

How the results depend on the processing

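The count of 6336 supplied genes moved little. It was 6789 with a limit of 1 TPM, 6140 with 10 TPM, 6298 when all 4 libraries had to pass, 6075 with TPM over protein-coding genes only, 6250 with CPM and 6303 to 6314 without each egg library in turn. The concentration depended on length. The share held by the 100 most abundant genes, 28.3%, was 27.2% over protein-coding genes only, 35.9% with 200 nt taken off each length and 17.3% by CPM, and the 492 genes that hold 50% became 298 and 782 under the last 2. Of the 20 most abundant protein-coding genes 18 and 9 kept their place among the 20 under these settings. The biological coefficient of variation, 5.03%, ranged from 4.78% to 5.23% without each library in turn. The 18 lists without a supplied member were 15 with a limit of 1 TPM, 23 with TPM over protein-coding genes only and 18 to 20 without each library in turn. By CPM 1 zygotic dorsoventral gene passed the limit, against 0. Genes without a count numbered 8420 to 8476 with 3 libraries.

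Between eggs and Ctrl embryos 6489 genes were called (2963 higher and 3526 lower in eggs), 6442 with DESeq2, 6478 with DESeq2 size factors, 6474 with library size alone, 8096 without the filter, 5698 with a mean of 100 counts and 6309 to 6449 without each library in turn. Same-numbered eggs and embryos had correlations of -0.17, -0.02 and 0.16 in their deviations, against -0.22 to 0.22 for differently numbered ones. Over so few replicates, these values cannot decide whether the replicate numbers pair the samples. With a replicate block over replicates 2 to 4, 6290 genes were called, 2875 higher and 3415 lower. A description of promoter motifs was planned but not run, because no sequence was used here. Depth limits statements on absence to the floor of 3 counts, and genes that share exons or have near-identical copies are limited by the counting at any depth.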

Other observations

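Of the 100 most abundant protein-coding genes, 18 belonged to none of the lists, and most of these are not named by the rule above but were chosen after their values were seen. They include proteins of chromatin, folding, redox balance and the cytoskeleton. Cyp1, a cyclophilin that helps proteins fold, had 2820.3, 2843, 2813 and 2817 TPM in egg replicates 1 to 4, the lowest spread of these 18 with a CV of 0.475%. Sumo, the small protein modifier, had 2595, 2563, 2800.1 and 2481 TPM, and the chromatin protein Df31 had 2131, 2144, 2082 and 2104 TPM. The histone chaperone Nap1 had 1432, 1347, 1350.4 and 1334 TPM, and dUTPase, which keeps uracil out of DNA, had 1305, 1292, 1386 and 1196 TPM. Of the exonic bases of Nap1 73.0% and of dUTPase 100% are shared with genes on the other strand, and without the strand setting reads of those genes cannot be told apart.

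The glutathione S-transferase GstD1 had 2075, 2042, 2107 and 2096 TPM and the peroxiredoxin Prx2 had 1332, 1355, 1354 and 1378 TPM. The cofilin tsr had 2024, 2155, 2043 and 2093 TPM. The yolk receptor yl, which takes yolk protein into the oocyte, had 1339, 1330.0, 1404 and 1263 TPM, whereas the 3 yolk protein genes were at the floor. In Ctrl embryos the mean levels were 16.2 TPM for GstD1, 119 TPM for Prx2 and 253 TPM for yl, against 2834 TPM for tsr, 3378 TPM for Df31 and 2345 TPM for Sumo. These levels are values without a test here.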
